A study of Homo sapiens with 6 samples.

Results

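The genes described here are 30 genes of cholesterol synthesis and of its control by the sterol regulatory element-binding proteins (SREBPs). They were chosen by symbol for their known place in the pathway, with earlier results of these data known. All 30 were found among the 60669 rows of the deposited table, and all 30 had a mean of 10 or more normalized counts across the 6 libraries, the filter on low values that 15637 rows passed. They were compared between LX-2 cells given an siRNA against ADAMTS12 (siADAMTS12, 3 libraries) and LX-2 cells given a negative control siRNA (siCTL, 3 libraries). LX-2 is an established human line of hepatic stellate cells, which make the scar matrix of a fibrotic liver. The labels give its genotype as WT and its cells as activated. Both groups grew in medium with 10% fetal calf serum, which itself carries lipoprotein cholesterol, and were collected 48 h after lipid transfection. A single siRNA sequence and a single cell line were used to deplete ADAMTS12, which is a secreted protease of the matrix.

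Cells make cholesterol from acetyl-CoA through mevalonate, the isoprenoid pyrophosphates, squalene and lanosterol. When sterols are low in the endoplasmic reticulum (ER), the escort protein SCAP carries SREBPs to the Golgi, where a pair of proteases free the part that enters the nucleus and switches on most enzymes of the pathway. When sterols are high, INSIG proteins hold SCAP and the SREBP in the ER. Activated stellate cells have lost the retinyl ester droplets of the quiescent state, and cholesterol load is known to alter their response to injury signals in mice.

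The deposited normalized counts summed to 30.97 ± 0.393 M (mega) per siADAMTS12 library and 33.75 ± 0.276 M per siCTL library (SD, n = 3 each). These sums follow the authors' scaling and are not read depths. Across genes, the correlation of log2 values was 0.991 to 0.994 between libraries of a group and 0.985 to 0.988 between libraries of different groups. The target ADAMTS12 had 4083, 3449 and 3687 normalized counts in siADAMTS12 replicates 1, 2 and 3, against 13709, 12235 and 13423 in the siCTL replicates, so that 28.5% of the siCTL mean was left. Of 12 stellate cell markers, 10 had a mean of at least 10, while LRAT was at 0 in every library and DES was seen in 1 library only. Their summed level was 352481 to 380809 in siADAMTS12 libraries and 446929 to 491724 in siCTL libraries, and the part of this lower level in the results below was not tested. VIM, which many cell types express, made up much of that sum (130409 to 142753 in siADAMTS12 libraries and 192482 to 212010 in siCTL libraries). SPARC (40003, 45778 and 41138 against 39768, 41708 and 41421), ACTA2, COL1A1, COL1A2 and COL3A1 overlapped between the groups. TAGLN (21547, 25798 and 20219 against 30739, 35617 and 34087) was lower in every siADAMTS12 library than in any siCTL library. The same held for PDGFRB (831, 904 and 754 against 1433, 1647 and 1275), TIMP1 and COL5A1. Summed markers of hepatocytes (23 to 29 against 18 to 20), endothelial cells (15 to 24 against 28 to 39) and macrophages (4 to 11 against 5 to 15) were low, with ALB, CYP3A4, STAB2 and CD163 at 0 or 1 in every library. Those of cholangiocytes (233 to 261 against 282 to 298) came almost wholly from KRT7. The labels do not say that the replicates were separate cultures, and the p-values therefore cover only the spread of these libraries, which may be technical.

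With siADAMTS12, the transcripts of HMGCS1, GGPS1, INSIG1, IDI1 and LBR fell to between 61.5% and 78.9% of the siCTL mean. NPC1 and STARD4 fell to 81.6% and SC5D to 83.4%, while TM7SF2 rose to 139%, TMEM97 to 116% and SCAP to 115%. The other enzymes and both SREBP genes did not pass the test. In all 8 of 30 genes fell and 3 rose (26.7% and 10.0%), where 15.5% of all genes tested fell and 11.5% rose. The 11 genes called in either direction made up 36.7%, against 27% of all genes tested. That background holds genes of lower level than any of the 30. Among the 12697 genes with a mean of at least 50, 19.1% fell and 14.2% rose, and of the 30 again 8 fell and 3 rose. The median log2 fold change was -0.08 over the 30 genes and 0.0050 over all genes tested. In 14 of the 30 genes the libraries of the groups were fully apart (46.7%, against 40.9% of all genes tested). Of these, 9 were lower and 5 higher with siADAMTS12, where 21.7% of all genes tested were apart and lower and 19.2% apart and higher. The test is limma on log2(normalized count + 1) with Benjamini-Hochberg adjustment over the 15637 genes and a 0.05 threshold. Each fold change is given as siADAMTS12 over siCTL with its moderated standard error (SE) or the 95% interval of the fit. In bulk RNA, fewer cells expressing a gene and less RNA per cell cannot be told apart.

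**Figure D1:**
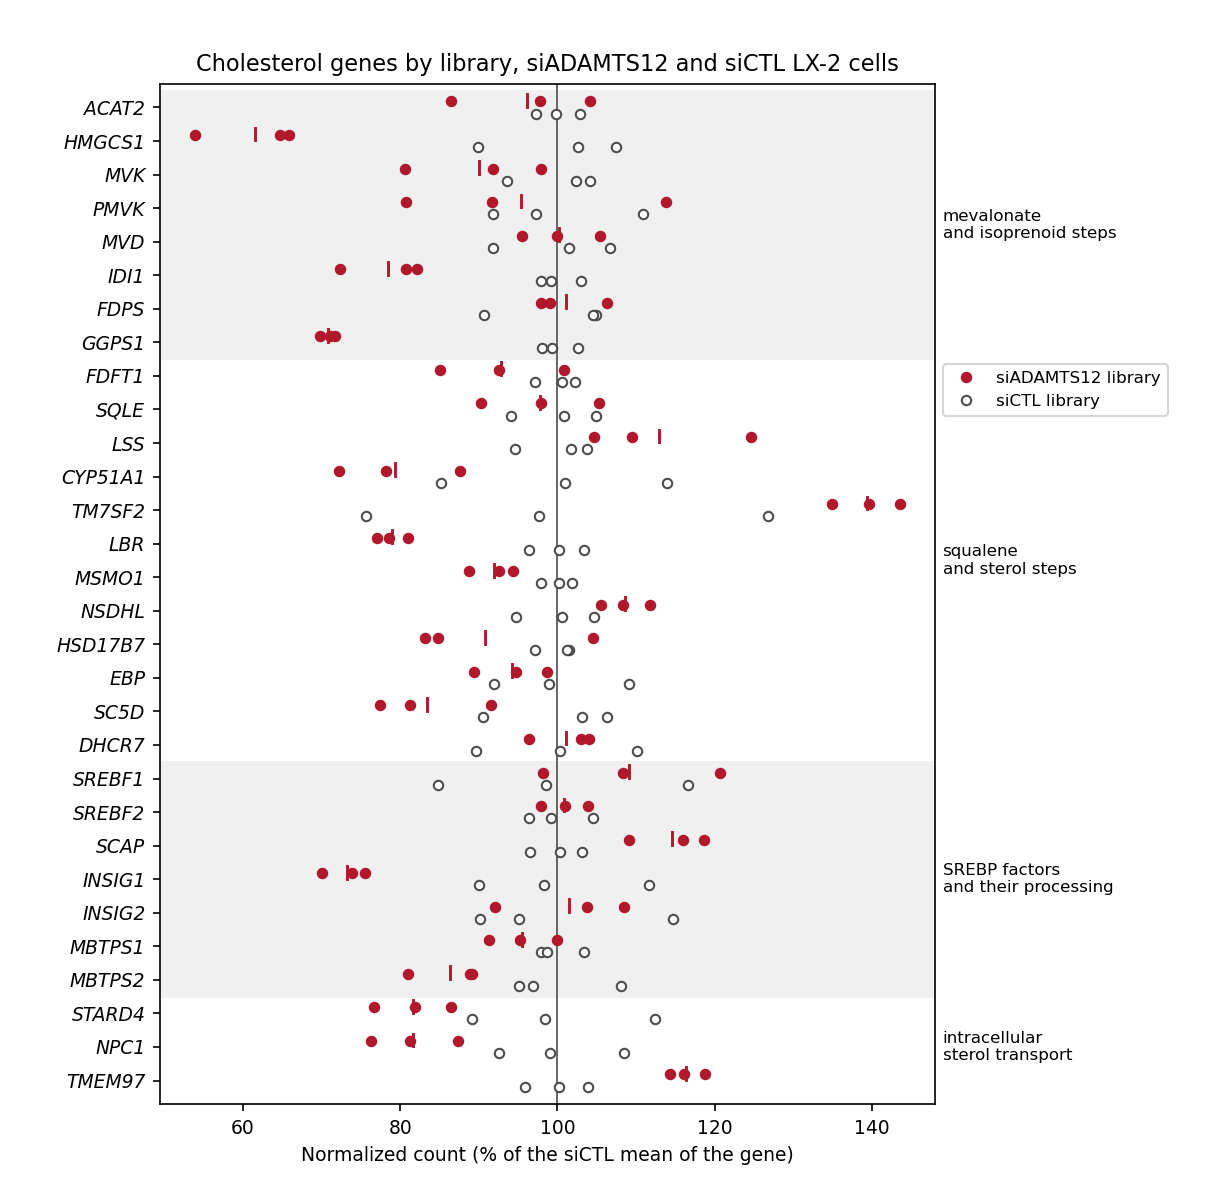
Normalized counts of the 30 genes in each library as a percent of that gene's siCTL mean, with filled points for siADAMTS12 libraries, open points for siCTL libraries and a tick at the siADAMTS12 mean. HMGCS1 lies farthest to the left (siADAMTS12 mean 61.5%) and TM7SF2 farthest to the right (139%).

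In the mevalonate and isoprenoid steps, 3 of 8 genes fell and 0 rose by limma, with 0 rising at an unadjusted p under 0.05. HMGCS1, the synthase that makes HMG-CoA from acetoacetyl-CoA (ENSG00000112972, chromosome 5, 43289395 to 43313512, minus strand, GRCh38), had 5814, 5706 and 4758 normalized counts in siADAMTS12 libraries, against 9485, 9062 and 7932 in siCTL libraries. Every siADAMTS12 library lay below every siCTL library, by a wide gap. Its log2 fold change was -0.70 ± 0.09 (SE; adjusted p = 0.000156), the lowest of the 30. IDI1, the isomerase that interconverts the basic isoprenoid units (ENSG00000067064, chromosome 10, 1039152 to 1049170, minus strand), had 2568, 2521 and 2262 in siADAMTS12 libraries, against 3218, 3058 and 3097 in siCTL libraries (-0.35 ± 0.07, adjusted p = 0.00216). Its groups did not overlap either, and siADAMTS12 replicate 3 was the lowest library for both genes. GGPS1, which makes geranylgeranyl pyrophosphate for protein prenylation rather than for sterols (ENSG00000152904, chromosome 1, 235327350 to 235344532, plus strand), had 106, 108 and 109 against 149, 156 and 151, with a log2 fold change of -0.49 ± 0.12 (adjusted p = 0.0110). Its libraries were tightly grouped on both sides.

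The enzymes between these steps did not pass. ACAT2, the cytosolic thiolase that makes acetoacetyl-CoA just before HMGCS1, had 5762, 6138 and 5093 normalized counts in siADAMTS12 libraries, against 5881, 6067 and 5733 in siCTL libraries, and the groups overlapped. Its 95% interval of -0.22 to 0.10 lies wholly above that of HMGCS1, -0.90 to -0.51. The mevalonate kinase MVK (1523, 1428 and 1255 against 1593, 1620 and 1456) was at -0.15 and the phosphomevalonate kinase PMVK at -0.08, with intervals of -0.33 to 0.03 and -0.35 to 0.19. The decarboxylase MVD and the farnesyl pyrophosphate synthase FDPS were at 0.0053 and 0.02, with intervals of -0.16 to 0.17 and -0.14 to 0.17.

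In the squalene and sterol steps, 2 of 12 genes fell and 1 rose (16.7% and 8.33%), near the 15.5% and 11.5% of all genes tested. LBR and TM7SF2 encode the pair of reductases that act on the same sterol intermediate after lanosterol is demethylated, and they moved in opposite directions. LBR, which is also the lamin B receptor of the inner nuclear membrane (ENSG00000143815, chromosome 1, 225401502 to 225428925, minus strand), had 2750, 2665 and 2616 normalized counts in siADAMTS12 libraries, against 3510, 3400 and 3269 in siCTL libraries (-0.34 ± 0.06, adjusted p = 0.00121). TM7SF2 (ENSG00000149809, chromosome 11, 65111845 to 65116384, plus strand) had 282, 300 and 292 against 204, 265 and 158 (0.51 ± 0.16, adjusted p = 0.0364). Its siADAMTS12 libraries were close together and all above the siCTL libraries, which were widely spread. Per kb of exon, the level of LBR over that of TM7SF2 was 6.32, 5.76 and 5.81 in siADAMTS12 libraries and 11.2, 8.32 and 13.4 in siCTL libraries, a ratio chosen with the fold changes known and given without a test. LBR thus kept the higher level per kb of the pair in every library.

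The call of TM7SF2 did not hold without siADAMTS12 replicate 1 (adjusted p = 0.0584), replicate 2 (0.0781) or replicate 3 (0.0906), or without siCTL replicate 1 (0.0756) or replicate 3 (0.122), in limma fits whose adjusted p ranged from 0.00540 to 0.122 over 13 alternatives. Without siCTL replicate 3 its log2 fold change was 0.32, and without siCTL replicate 2 it was 0.69. SC5D, the desaturase that acts late in the pathway (ENSG00000109929, chromosome 11, 121292453 to 121308694, plus strand), had 1017, 1147 and 969 against 1292, 1331 and 1133, and its groups overlapped slightly (-0.26 ± 0.09, adjusted p = 0.0439). Its call was lost without siADAMTS12 replicate 1 (0.106) or 3 (0.161) and without siCTL replicate 1 (0.118) or 2 (0.143), and its adjusted p ranged from 0.00789 to 0.161 over the 13 alternatives. After quantile normalization it was not called, at 0.0526.

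The lanosterol synthase LSS had 3974, 3492 and 3336 normalized counts in siADAMTS12 libraries, against 3306, 3243 and 3014 in siCTL libraries. The groups did not overlap, but LSS did not pass (0.17 ± 0.07, adjusted p = 0.109) except with the replicate number as a block (adjusted p = 0.0283) or after quantile normalization (log2 fold change 0.24, adjusted p = 0.0324). The lanosterol demethylase CYP51A1 had 250, 206 and 223 against 288, 325 and 243, and siADAMTS12 replicate 1 lay above siCTL replicate 3 (-0.33 ± 0.13, adjusted p = 0.0820). It passed only without siCTL replicate 3 (-0.44, adjusted p = 0.0380), with a range of 0.0380 to 0.257 over the 13 alternatives. The methylsterol oxidase MSMO1 (3069, 3131 and 2944 against 3377, 3324 and 3249) and the sterol dehydrogenase NSDHL (2155, 2223 and 2098 against 1884, 2000 and 2081) also had groups that did not overlap, one lower and the other higher. Neither passed, at -0.12 ± 0.06 (adjusted p = 0.136) and 0.12 ± 0.06 (adjusted p = 0.187).

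The remaining sterol enzymes did not pass. The squalene synthase FDFT1 was at -0.11, the squalene epoxidase SQLE, a point of flux control, at -0.03, the ketosteroid reductase HSD17B7 at -0.15 and the sterol isomerase EBP at -0.08. DHCR7, the reductase that acts on dehydrocholesterol, was at 0.02. Their adjusted p-values from limma ran from 0.280 for FDFT1 to 0.879 for DHCR7. SQLE had 3872, 4166 and 3571 in siADAMTS12 libraries, against 3991, 4153 and 3725 in siCTL libraries, and its interval was -0.19 to 0.12. The intervals were -0.27 to 0.05 for FDFT1, -0.38 to 0.09 for HSD17B7, -0.29 to 0.13 for EBP and -0.15 to 0.19 for DHCR7. Those of FDFT1, HSD17B7 and EBP thus include the fold change at which SC5D was called (-0.26).

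**Figure D2:**
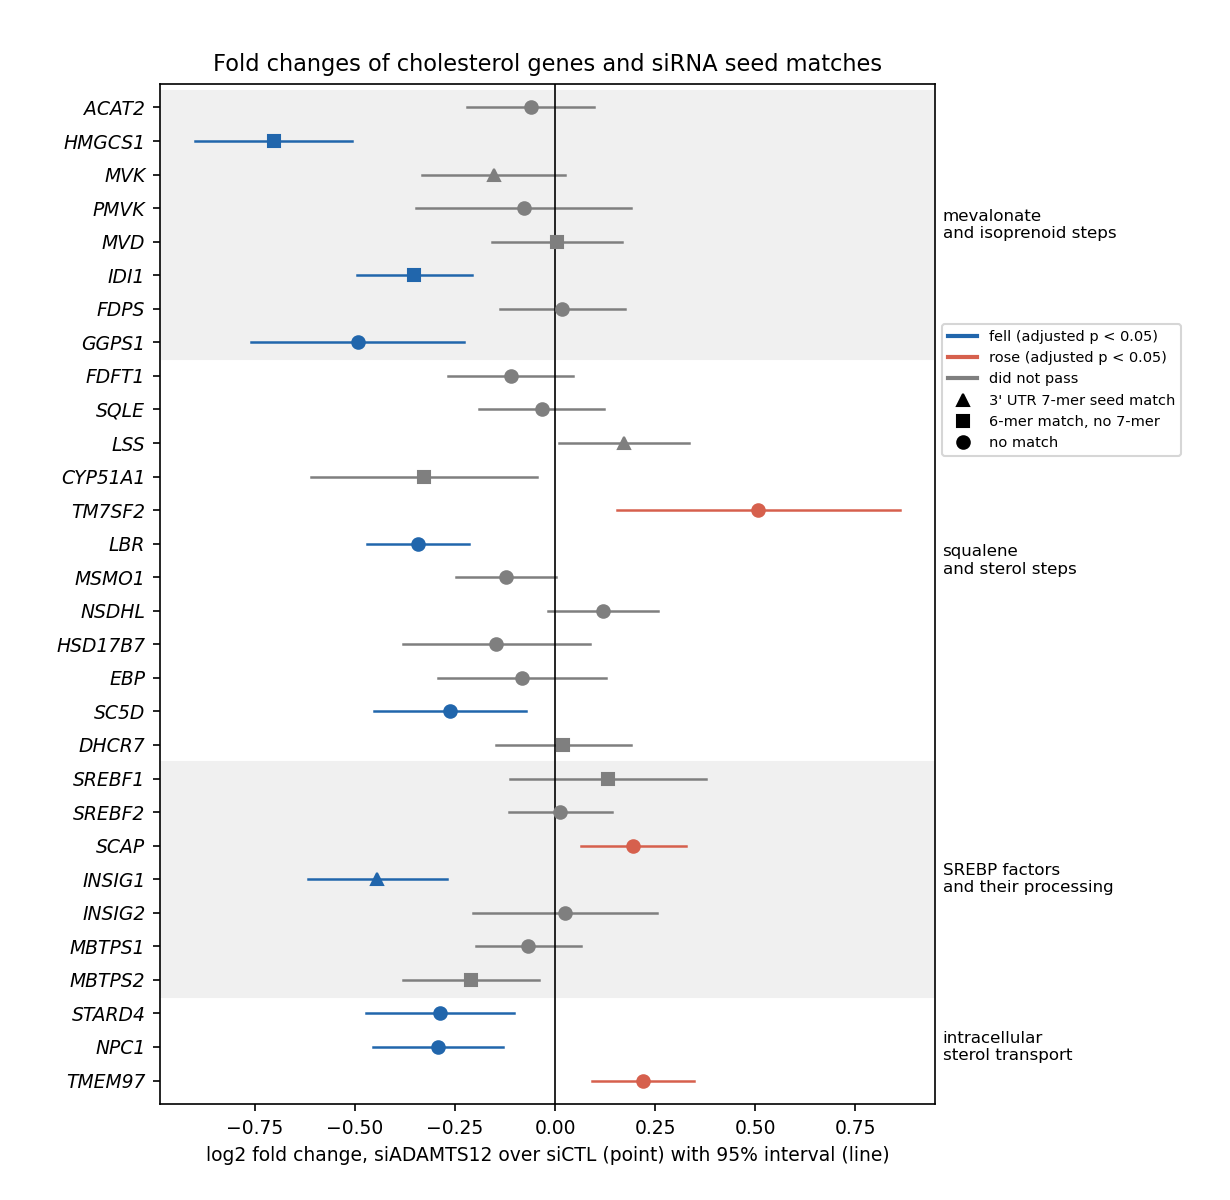
Log2 fold change (siADAMTS12 over siCTL) of each gene with its 95% interval, in pathway order from top to bottom, with colour for the limma call and shape for the kind of match to the siRNA seed in the 3' UTR. HMGCS1 (-0.70) and TM7SF2 (0.51) are the extremes, and triangles mark INSIG1, MVK and LSS, of which INSIG1 fell.

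Among the SREBP factors and the proteins that process them, 1 of 7 genes fell and 1 rose (14.3% each), also near those shares. SREBF2, which encodes the factor that mainly drives cholesterol genes, had 6414, 6602 and 6223 normalized counts in siADAMTS12 libraries, against 6303, 6643 and 6123 in siCTL libraries. The groups lay on top of each other, with a log2 fold change of 0.01 ± 0.06 and an interval of -0.12 to 0.14 (adjusted p = 0.900). SREBF1, whose products mainly drive fatty acid genes, had 1347, 1656 and 1486 against 1351, 1600 and 1164, at 0.13 with the wider interval of -0.11 to 0.38. Transcript levels say nothing of how much SREBP protein was cut and nuclear, which was not measured.

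INSIG1, itself a classic SREBP target (ENSG00000186480, chromosome 7, 155297776 to 155310235, plus strand), had 2243, 2127 and 2293 normalized counts in siADAMTS12 libraries, against 2982, 3388 and 2732 in siCTL libraries. Every siADAMTS12 library was below every siCTL library (-0.44 ± 0.08, adjusted p = 0.00161). Its relative INSIG2, which is not under the same sterol control, had 651, 623 and 553 against 689, 571 and 541, at 0.03 with an interval of -0.20 to 0.25. SCAP (ENSG00000114650, chromosome 3, 47413694 to 47477126, minus strand) had 3768, 3463 and 3681 against 3186, 3273 and 3063, with no overlap (0.20 ± 0.06, adjusted p = 0.0318). SCAP no longer passed without siADAMTS12 replicate 1 (0.111) or 3 (0.100) or without siCTL replicate 1 (0.0709) or 3 (0.111), with adjusted p from 0.00768 to 0.111 over the 13 alternatives.

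Per kb of exon, the level of SCAP over that of INSIG1 was 0.953, 0.924 and 0.911 in siADAMTS12 libraries and 0.606, 0.548 and 0.636 in siCTL libraries. The level of INSIG1 over that of INSIG2 was 3.73, 3.69 and 4.49 in siADAMTS12 libraries and 4.68, 6.42 and 5.46 in siCTL libraries. Both ratios differed without overlap, and both were chosen with the fold changes known and are not tested. By contrast, SREBF2 over SREBF1 overlapped, at 5.06, 4.24 and 4.45 in siADAMTS12 libraries and 4.96, 4.41 and 5.59 in siCTL libraries. The protease MBTPS1, which makes the first cut in an SREBP, was at -0.07 (interval -0.20 to 0.06). MBTPS2, which makes the second cut, had 930, 845 and 927 against 1127, 1010 and 992, without overlap. It did not pass (-0.21 ± 0.08, adjusted p = 0.0651) except with the replicate block (adjusted p = 0.0302).

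All 3 genes of intracellular sterol transport were called, a number too small to set against the background share. NPC1, the membrane protein that passes cholesterol out of lysosomes (ENSG00000141458, chromosome 18, 23506184 to 23586898, minus strand), had 4886, 4268 and 4550 normalized counts in siADAMTS12 libraries, against 6068, 5179 and 5543 in siCTL libraries (-0.29 ± 0.07, adjusted p = 0.0129). STARD4, a soluble carrier of cholesterol between membranes (ENSG00000164211, chromosome 5, 111496033 to 111512590, minus strand), had 4220, 3741 and 3998 against 5489, 4350 and 4808 (-0.29 ± 0.08, adjusted p = 0.0259). In both genes replicate 1 was the highest and replicate 2 the lowest library of each group. Within replicate numbers the ratio of siADAMTS12 to siCTL was 0.805, 0.824 and 0.821 for NPC1 and 0.769, 0.860 and 0.832 for STARD4.

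TMEM97, an ER membrane protein that binds NPC1 (ENSG00000109084, chromosome 17, 28319095 to 28328685, plus strand), had 3091, 3209 and 3139 normalized counts in siADAMTS12 libraries, against 2708, 2807 and 2593 in siCTL libraries, opposite in direction to NPC1 (0.22 ± 0.06, adjusted p = 0.0161). TMEM97 no longer passed without siADAMTS12 replicate 3 (0.0521) or siCTL replicate 3 (0.0663), over a range of 0.00407 to 0.0663. NPC1 was lost without siCTL replicate 1 (0.0530) and after quantile normalization (log2 fold change -0.18, adjusted p = 0.0979), over a range of 0.00104 to 0.0979. STARD4 was lost without siADAMTS12 replicate 2 (0.0753) or 3 (0.0665), without siCTL replicate 1 (0.0927) or 3 (0.0653) and after quantile normalization (-0.19, adjusted p = 0.122), over a range of 0.00218 to 0.122.

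Levels were compared between genes as normalized counts per kb of merged exon, using GENCODE 29 exons on GRCh38. Merged exons join those of all annotated transcripts of a gene. The level is therefore too low where the transcripts made are shorter, and the order of genes holds on this scale only. HMGCS1 averaged 1154 per kb in siADAMTS12 libraries and 1877 in siCTL libraries, where it was the highest of the 30. ACAT2 (1318 and 1371), FDPS (1210 and 1196), DHCR7 (1191 and 1178) and MSMO1 (1054 and 1147) followed. In siADAMTS12 libraries HMGCS1 thus averaged below ACAT2, FDPS and DHCR7, whose libraries overlap with its own in the plot of levels. SREBF2 averaged 849 per kb in siADAMTS12 libraries and 841 in siCTL libraries, against 186 and 171 for SREBF1. The lowest levels were those of GGPS1 (28.3 and 39.9 per kb), CYP51A1 (63.2 and 79.6), HSD17B7 (70.2 and 77.3) and TM7SF2 (85.5 and 61.3). Exons of other genes on the same strand cover 37.3% of the exon bases of GGPS1 and 79.4% of those of CYP51A1. The levels were not adjusted for this, so the low places of GGPS1 and CYP51A1 are uncertain.

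**Figure D3:**
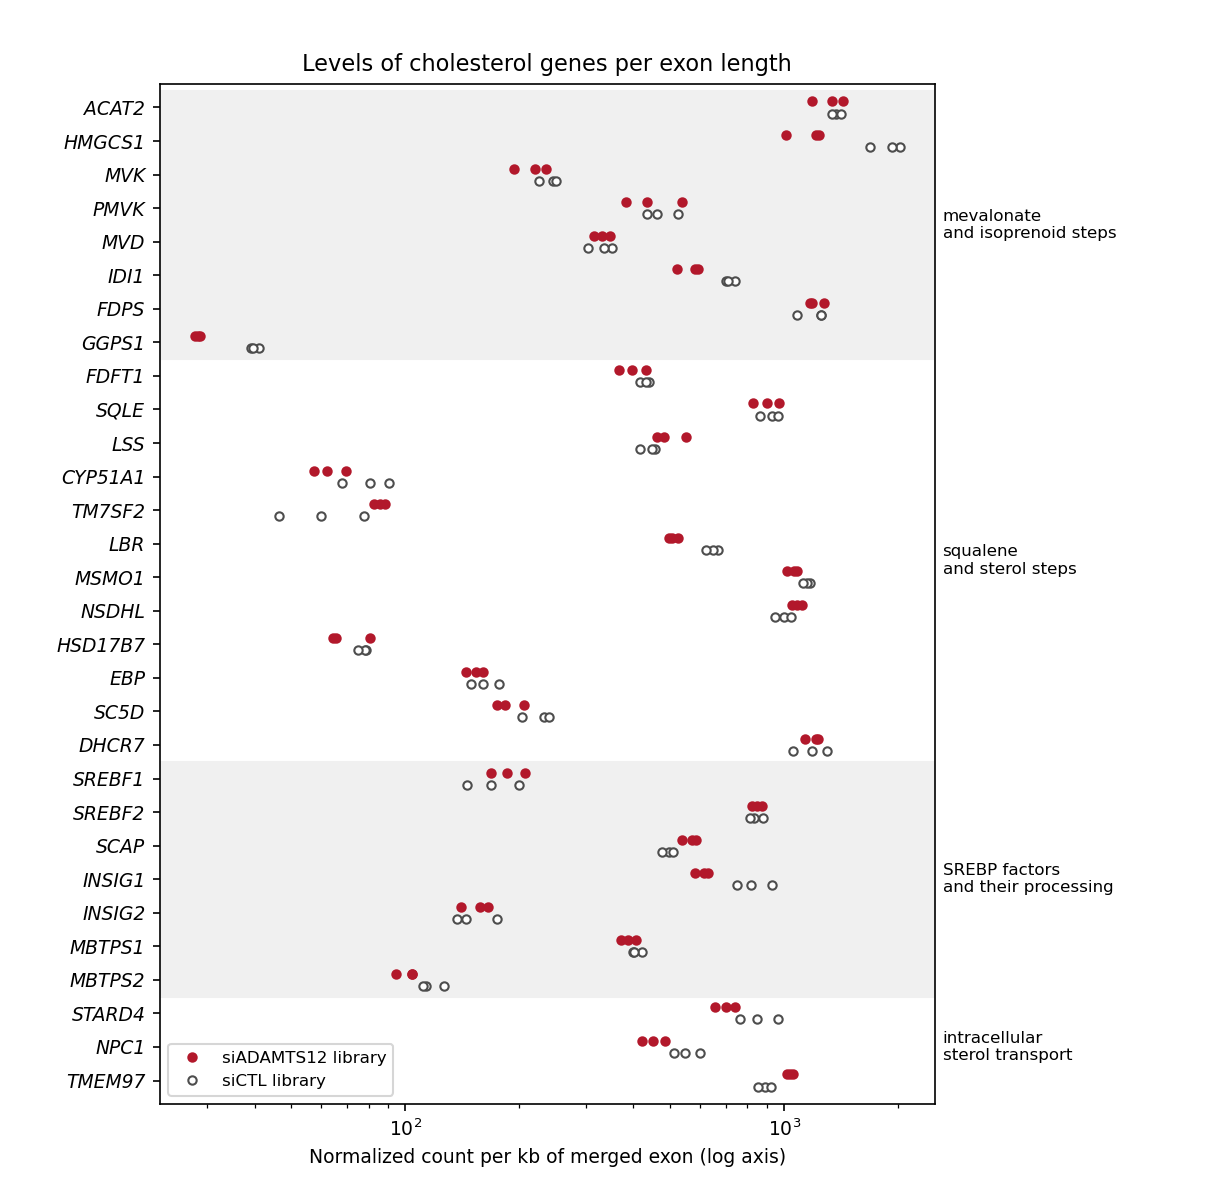
Normalized counts per kb of merged exon on a log axis, in every siADAMTS12 library (filled) and siCTL library (open), by pathway step. HMGCS1, ACAT2, FDPS, DHCR7 and MSMO1 are the highest on this scale in siCTL cells (1147 to 1877 per kb on average), and GGPS1 is the lowest (39.9).

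Some of these levels share sequence with other genes. Exons of TBCE on the same strand cover 37.3% of the exon bases of GGPS1, and TBCE itself had 34, 47 and 46 normalized counts in siADAMTS12 libraries, against 53, 61 and 64 in siCTL libraries (log2 fold change -0.49, adjusted p = 0.0968). Its part in the value of GGPS1 was not tested. For CYP51A1, 79.4% of the exon bases lie under exons of the gene models AC000120.2 and AC000120.3, which are listed at 0 in every library, so how its reads were assigned is uncertain. Exons of TCP1 and SOD2 on the opposite strand cover 52.3% of those of ACAT2, and the strand setting of the counting is not given in the sources used here. On the opposite strand of NPC1, RMC1 covers 5.98% of its exon bases and was higher with siADAMTS12 (0.19, adjusted p = 0.0352), the other direction to NPC1. RAI1, over 6.92% of the exon bases of SREBF1, rose (0.46, adjusted p = 0.000296), and MMAB, over 4.72% of those of MVK, fell (-0.33, adjusted p = 0.0225), each on the opposite strand and in the direction of the fold change of its partner, which did not pass. Their part in the values of NPC1, SREBF1 and MVK was not tested. The antisense gene opposite IDI1, IDI2-AS1, had 6 to 14 normalized counts in siADAMTS12 libraries and 10 to 14 in siCTL libraries, and AC114947.2 opposite HMGCS1 had at most 1. On the same strand, YY2 and a small RNA gene lie over 13.4% of the exon bases of MBTPS2, and YY2 had 80, 89 and 103 normalized counts in siADAMTS12 libraries, against 126, 106 and 114 in siCTL libraries (log2 fold change -0.35, adjusted p = 0.114). FDPS has 8 named pseudogenes, CYP51A1 has 3 and HSD17B7 and TMEM97 have 2 each, so their counts are uncertain where reads could be split.

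An siRNA can lower transcripts other than its target through matches between bases 2 to 8 of its guide strand, the seed, and 3' UTRs. The sequences shown are the siRNA, with the seed and its counterpart in capitals, and the places in the 3' UTRs of the 3 genes with a 7-base match and of HMGCS1 and IDI1, which fell and hold only the 6-base match to guide bases 2 to 7, with the matching bases in capitals. The guide is the reverse complement of the sense strand in the labels, and the other sequences are from GENCODE 29 transcripts on GRCh38, 5′ to 3′ on the gene's strand.
siRNA sense strand: gccaaaguuugGAGGGAAa
siRNA guide strand: uUUCCCUCcaaacuuuggc
INSIG1 (chr7:155309713-155309739, plus strand): gctttgttttGAGGGAAAtgtcttgga
MVK (chr12:109597335-109597361, plus strand): ttcagcaatgGAGGGAAAtagggtttg
LSS (chr21:46188951-46188977, minus strand): ccagttacctGAGGGAAAacagatatt
HMGCS1 (chr5:43290208-43290234, minus strand): tttaaaatggaAGGGAAgaataggggc
IDI1 (chr10:1040655-1040681, minus strand): gagcaggttcaAGGGAAattaaatgat

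Among the 30 genes, 3 held the 7-base match GAGGGAA (10.0%), against 15.7% of 12727 tested genes searched, and each of the 3 also had the 8-base match GAGGGAAA. Of these INSIG1 fell, while MVK (-0.15, 95% interval -0.33 to 0.03) and LSS (0.17, 95% interval 0.0099 to 0.34) did not pass. Over all genes searched, the 7-base match was in 30.9% of those that fell and in 10.96% of those that rose. The median 3' UTR searched was 1670 bases in genes that fell, 1292 in those that rose and 973.5 in those not called. The shares were not adjusted for this length. Of the 8 cholesterol genes that fell, INSIG1 held the 7-base match, HMGCS1 and IDI1 the 6-base match, and GGPS1, LBR, SC5D, STARD4 and NPC1 held neither. None of the 3 that rose, TM7SF2, SCAP and TMEM97, held a match, in 3' UTRs of 303, 141 and 1892 bases. The 6-base match without the 7-base one was also in MVD, CYP51A1, DHCR7, SREBF1 and MBTPS2, which did not pass. In the 20 genes with neither match the median log2 fold change was -0.07, against 0.02 in the 7462 such genes of the whole table. The sense strand was found in exon 12 of ADAMTS12, within the coding part, at chr5:33637728-33637746 on the minus strand. Matches describe the sequence only, and whether the siRNA acted on any of these transcripts other than its target was not tested.

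Promoters were searched because SREBPs bind sterol regulatory elements, usually near sites for the factor NF-Y. RefSeq promoter sequences (GRCh38.p14, from 250 bases before to 50 after the start) matched 27 of the 30 genes. ACAT2, FDFT1 and SQLE had no entry. Searched on both strands, the classic sterol regulatory element, whose letters are the capitals in the sequence shown here, was in 1 of the 27, SREBF2, against 0.0456% of 35116 promoters. The looser TCACNCCAC, which overlaps it, was in that same place alone, against 1.13% of all promoters. The place in SREBF2 is shown because the gene's own level was nearly equal in both groups, and the element, in capitals, lies 134 to 125 bases before the start on the gene's strand.
SREBF2 (chr22:41832961-41832990, plus strand): atgacgcgccATCACCCCACgcaccgcttc
The NF-Y core CCAAT was in 18 of the 27 promoters (66.7%), against 34.6% of all promoters. It was in 6 of the 8 genes that fell (GGPS1, HMGCS1, IDI1, INSIG1, SC5D and STARD4), in 2 of the 3 that rose and in 10 of the 16 others, so it did not mark one direction. The E-box CACGTG was in INSIG1, SC5D, SCAP and LSS, or 14.8%, against 7.26% of all promoters and 9.16% of those of tested genes. In all these shares the 27 were counted by gene and the background by promoter entry. No match says only that these letters are not in this window.

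Genes around the pathway were counted in 5 lists, to be read against the 15.5% of all genes tested that fell and the 11.5% that rose. The list of SREBP processing, ER export and sterol-regulated degradation had 7 genes that fell and 5 that rose of 25. ERLIN1, part of the ER complex that helps degrade sterol-regulated proteins, had 2319, 2412 and 2195 normalized counts in siADAMTS12 libraries, against 5022, 4890 and 4795 in siCTL libraries (-1.09 ± 0.06, adjusted p = 2.94e-07). SEC24D and SEC24A, cargo adaptors of the vesicles that leave the ER, were at -1.06 and -0.61, and TMUB1, a partner in ER protein degradation, was at 0.67. The list on the use of mevalonate products had 4 that fell and 3 that rose of 18. PGGT1B, the catalytic subunit of a transferase that attaches geranylgeranyl groups to proteins, had 391, 389 and 342 against 900, 847 and 989 (-1.28 ± 0.09, adjusted p = 1.86e-06), with no overlap. PDSS1 and PDSS2, which build the ubiquinone side chain, were at 0.47 and 0.41, and the methyltransferase ICMT was at -0.21.

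Cholesterol uptake, lysosomal exit and transport had 4 that fell and 2 that rose of 19. NCEH1, a hydrolase of cholesteryl esters, had 4369, 4258 and 4184 normalized counts in siADAMTS12 libraries, against 8116, 7999 and 8051 in siCTL libraries (-0.92 ± 0.05, adjusted p = 4.86e-07). The sterol transfer proteins GRAMD1C, OSBPL2 and OSBPL9 were at -0.82, -0.36 and 0.29. Of 11 tested genes of LXR signalling and cholesterol efflux, 3 fell and 1 rose. CAV1, the cholesterol-binding coat protein of caveolae, was at -0.90, TTC39B at -0.34, the efflux transporter ABCA1 at -0.26 and ABCA7 at 0.31. Of 16 tested genes of fatty acid synthesis linked to SREBF1, 3 fell and 2 rose, with the desaturase FADS1 at -0.31, the citrate lyase ACLY at -0.27, the elongase ELOVL6 at 0.40 and MID1IP1 at 0.36. Over the 89 tested genes of the 5 lists, 21 fell and 13 rose (23.6% and 14.6%, against 15.5% and 11.5% of all genes tested), with a median log2 fold change of -0.05. With the filter at a mean of 50, 19.1% of all genes kept fell and 14.2% rose, and in the lists again 21 fell and 13 rose. Without siADAMTS12 replicate 3, 13 fell and 8 rose, and without siCTL replicate 3, 18 fell and 8 rose. Without siCTL replicate 1, 14 fell and 9 rose. After quantile normalization 15 fell and 14 rose, and with the replicate block 28 fell and 14 rose. Of the 21 that fell, 8 held the 7-base seed match (38.1%), PGGT1B, SEC24A, GRAMD1C, FADS1 and ICMT among them, while ERLIN1 and SEC24D held only the 6-base match and NCEH1 held neither. The 7-base match was in 7 of the 55 that were not called (12.7%). It was in 30.9% of all genes that fell and 15.7% of all genes searched, and none of these shares was adjusted for 3' UTR length. Of the 13 that rose, 2 held it, ELOVL6 and C12orf49, the second of which is named for this match alone.

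Of the 11 called cholesterol genes, HMGCS1, IDI1, GGPS1, LBR and INSIG1 passed under all 13 alternative settings, and all 11 kept their direction under each. The other 6 calls, those of TM7SF2, SCAP, TMEM97, SC5D, STARD4 and NPC1, were each lost under some. Without a trend in eBayes all 6 were lost, at adjusted p from 0.0511 for TMEM97 to 0.115 for SC5D. Without a filter on low values 4 were lost, TM7SF2 (0.0658), SC5D (0.0738), SCAP (0.0558) and STARD4 (0.0508). Without siADAMTS12 replicate 3 or siCTL replicate 3, 0 of the 30 rose by limma, with 4 and 3 higher at an unadjusted p under 0.05, and without siADAMTS12 replicate 1 or siCTL replicate 1, 1 rose. Without siCTL replicate 1, 5 fell. Of the 19 genes not called, 16 passed under no alternative.

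**Figure D4:**
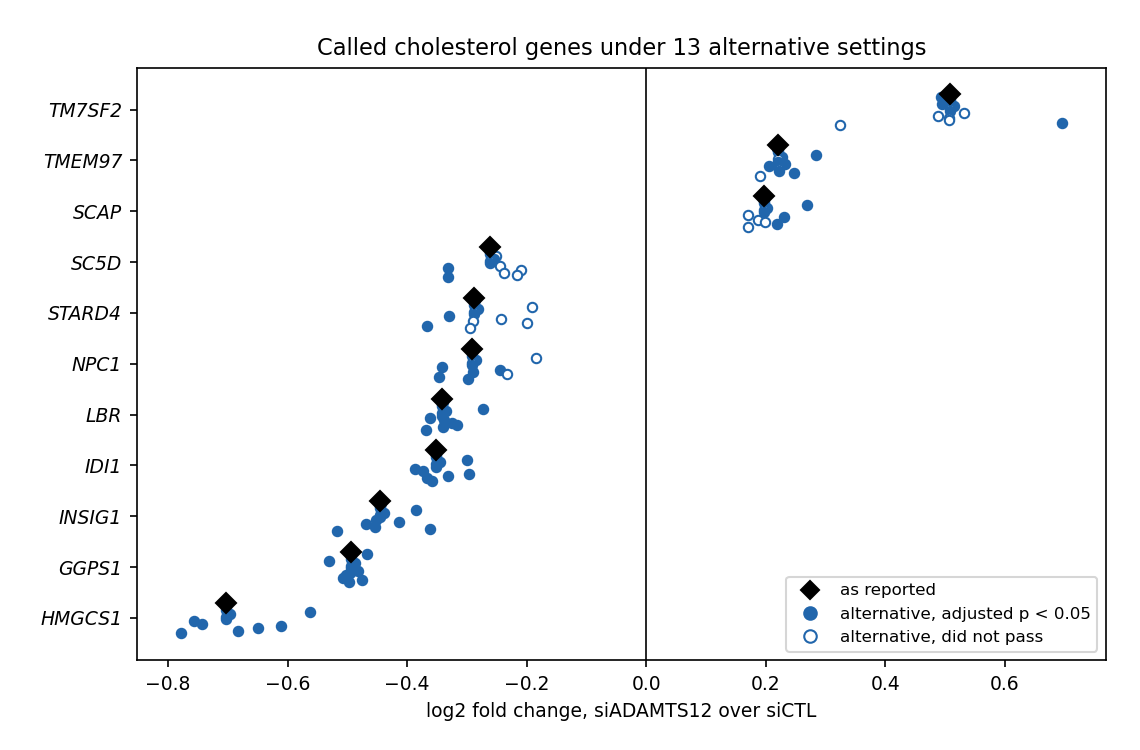
Log2 fold change (siADAMTS12 over siCTL) of the 11 called genes as reported (diamonds) and under 13 alternative settings (circles, filled where adjusted p was under 0.05). Every circle is filled for HMGCS1, GGPS1, INSIG1, IDI1 and LBR, and no point crosses 0.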

How the data were processed

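Poly(A) RNA libraries of 3 siADAMTS12 and 3 siCTL samples were analysed. The values are a score: the authors deposited normalized counts, per the name of their table, as whole numbers. STAR, HTSeq, DESeq2 and GRCh38 are listed without versions in the submitters' processing notes. The annotation, strand setting and scaling factors were not given in the sources used here. Median-of-ratios factors of the columns lay between 1.003 and 1.007. Between 1 and 40, siADAMTS12 replicate 2 lacked 12 whole numbers altogether and siCTL replicate 3 lacked 9, so these are scaled values, read depth is unknown and count models were not used.

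Genes with a mean of at least 10 were kept. limma 3.58.1 (R 4.3.3, lmFit, eBayes with trend) was fitted to log2(value + 1) of the 6 libraries with a group term alone, which understates changes of low genes. In a check on simulated data, 48.0% of log2 changes of 0.3 were recovered, 70.8% of those of 0.5 and 87.0% of those of 1. Of the simulated calls, 4.74% were false. The simulated spread was set by hand and not estimated from these libraries, so these shares need not hold for them. The correlation of deviations from the group mean was 0.367, 0.135 and 0.133 between libraries of the same number and -0.193 to 0.0632 between those of different numbers. The numbers were therefore taken to pair the samples, from this check and not from a label, and a fit with the replicate block stands beside the main one. It rests mainly on replicate 1, since deviations cancel within a group. For each protein-coding gene, 1 GENCODE 29 transcript was searched, chosen by APPRIS principal tag, basic set and 3' UTR length (30 bases or more). Python 3.11.15, numpy 2.4.6, pandas 2.3.3 and matplotlib 3.10.9 were used. The 30 genes and all lists were chosen with earlier results of these data known. All 30 are described, and from each other list the text names up to 4 genes with the smallest adjusted p past the threshold. Alternatives were another pseudocount, other filters, other scalings, no trend, the block and leaving out each library. Only the block alternative used the replicate numbers, so calls lost in the other fits, those without 1 library included, were lost with the pairing ignored.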

Additional observations from a re-analysis of the deposited data

How the results depend on the processing

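Without a trend in eBayes, 0 of the 30 genes rose by limma (3 were higher at an unadjusted p under 0.05) and 5 fell, and 7 genes of the 5 other lists rose. Without a filter on low values 1 of the 30 rose, and after quantile normalization 5 fell and 4 rose. With the replicate block 9 fell and 4 rose, LSS and MBTPS2 being the additions, and no other call among the 30 changed. With the block 19.6% of all genes tested fell and 15.5% rose, and 28 genes of the 5 other lists fell and 14 rose. Leaving out 1 library at a time, 0 to 3 of the 30 rose and 5 to 8 fell, and 8 to 11 genes of the 5 other lists rose and 13 to 19 fell. The cause of these shifts was not tested. No direction of the 11 called cholesterol genes reversed under the 13 alternatives, and directions of single genes of the other lists were not followed across them. Over all genes, against 1798 rises and 2424 falls as reported, the alternatives gave 1230 to 2423 rises and 1873 to 3059 falls. The excess of falls turned round after quantile normalization, with 2175 rises and 2078 falls, so that 51.1% of calls were rises, against 42.6% as reported. Read depth is unknown, so no counting error stands beside any value, and with 3 libraries per group the calls of TM7SF2, SCAP, TMEM97, SC5D, STARD4 and NPC1 were each lost under at least 1 setting and without at least 1 library.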
